A study of Mus musculus with 15 samples.

Results

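The type 2 cytokine genes of mouse T helper cells were examined together with Gata3, which encodes the transcription factor that directs them. The set is defined by gene symbols, with no threshold on measured values, and holds 7 of the 27179 genes counted (18063 had a count in at least 1 library): Gata3, Il3, Csf2, Il4, Il5, Il13 and Rad50. All 7 symbols matched a gene ID. mRNA had been sequenced from 15 libraries of mouse CD4 T cells, 5 each of conditions named Tfh (T follicular helper), Th17 and Th1. Naive cells were stimulated in culture for 3.5 days with antibodies against CD3 and CD28 bound to the plate, and then sorted. Tfh cells were sorted as CXCR5 positive and IL-17A negative, and Th1 cells as positive for interferon gamma. How Th17 cells were gated, and which cytokines the cultures received, was not given in the sources used here. All groups carried the genotype B6.Cg-Ifngtm3.1Lky-Il17atm1.1Lky, which by its name has altered Ifng and Il17a alleles. There was no Th2 condition, so the genes are described in 3 kinds of helper cell outside the Th2 lineage.

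Type 2 immunity rests on Th2 cells, in which GATA3 opens the chromatin of the Il4, Il13 and Il5 genes while IL-4, acting through STAT6, keeps Gata3 on. T-bet, the Th1 factor encoded by Tbx21, binds GATA3 and represses the type 2 genes. IL-4 and IL-13 drive antibody class switching and mucus production, and IL-5 drives the growth of eosinophils. IL-3 and GM-CSF (the product of Csf2), encoded beside each other, act with IL-5 through receptors that share a beta chain, and support basophils, mast cells and myeloid cells. Activated T cells of several kinds make GM-CSF, among them the Th17 cells that cause tissue inflammation. Rad50 encodes a subunit of a DNA break repair complex, and its gene body also holds the locus control region of the Th2 cytokine genes.

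On the GRCm38 assembly 6 of the 7 genes lie on chromosome 11. Il4 spans 53612460-53618665, Il13 53631323-53634702, Rad50 53649519-53707319, Il5 53720794-53725103, Csf2 54247270-54249899 and Il3 54265085-54267279. The gaps between neighbours in this row are 12.7, 14.8 and 13.5 kb within the Il4 to Il5 cluster, 522.2 kb from Il5 to Csf2 and 15.2 kb from Csf2 to Il3, and the whole row covers 654.8 kb. Gata3 lies on chromosome 2 at 9857078-9887953. In the annotation Gata3 overlaps 4930412O13Rik and 9230102O04Rik, which had 0 counts in all libraries. Il3 overlaps LOC115487722 and Csf2 overlaps Gm12223, neither of which was counted, so reads of these pairs could not be told apart here because the strand setting is unknown.

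The promoters of Il3, Il13, Il4 and Il5 are shown. They were chosen with the levels known: Il3 and Il13 had counts in Th1 libraries, while Il4 and Il5 were almost silent. Each is the stretch of 250 bases before the start site in the RefSeq GRCm38.p6 table, read along the gene's own strand, with every GATAA or TTATC in capitals. GATAA is the core that GATA factors bind. The Il3 window is chr11:54267280-54267529 (minus strand), that of Il13 is chr11:53634703-53634952 (minus strand), that of Il4 is chr11:53618666-53618915 (minus strand), for the upstream of its 2 starts, and that of Il5 is chr11:53720544-53720793 (plus strand).
Il3: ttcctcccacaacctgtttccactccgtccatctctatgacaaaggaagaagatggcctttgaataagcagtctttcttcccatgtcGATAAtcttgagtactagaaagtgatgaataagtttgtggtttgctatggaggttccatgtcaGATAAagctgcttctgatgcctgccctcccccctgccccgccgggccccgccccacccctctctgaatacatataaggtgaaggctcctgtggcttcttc
Il13: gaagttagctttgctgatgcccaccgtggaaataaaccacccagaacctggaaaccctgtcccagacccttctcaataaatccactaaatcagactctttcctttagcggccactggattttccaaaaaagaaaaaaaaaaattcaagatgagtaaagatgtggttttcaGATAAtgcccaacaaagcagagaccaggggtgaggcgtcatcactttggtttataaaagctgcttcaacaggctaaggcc
Il4: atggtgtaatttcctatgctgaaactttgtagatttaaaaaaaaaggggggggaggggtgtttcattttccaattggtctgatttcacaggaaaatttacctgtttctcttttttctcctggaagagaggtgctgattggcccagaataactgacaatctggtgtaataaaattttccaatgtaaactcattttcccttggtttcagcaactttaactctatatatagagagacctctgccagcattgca
Il5: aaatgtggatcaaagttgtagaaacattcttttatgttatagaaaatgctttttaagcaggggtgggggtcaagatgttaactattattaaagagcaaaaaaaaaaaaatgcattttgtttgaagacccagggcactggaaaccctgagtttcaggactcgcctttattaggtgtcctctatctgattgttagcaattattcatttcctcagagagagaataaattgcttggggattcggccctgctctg

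The Il3 window holds 2 GATAA matches, 163 and 100 bases before the start, and the Il13 window holds 1 at 80 bases. The Il4 and Il5 windows hold none, nor does that of Gata3. Of all 32851 windows of this length in the table, 22.6% hold the core on either strand. The NFAT core GGAAA, searched on both strands, occurs 1 time in the Il3 window, 4 times in that of Il13, 5 times in that of Il4 and 2 times in that of Il5, and in 55.6% of all windows. The RUNX core TGTGGT occurs at 128 bases before the Il3 start and 91 before the Il13 start, and in 14.0% of all windows. TATAAA occurs in the Il13 window only, as 2 overlapping matches on opposite strands at 31 and 29 bases, and in 12.4% of all windows. The window of the second, downstream Il4 start is not shown and holds no match to any of these motifs. The AP-1 site TGANTCA and the T-box core GGTGTGA have no match in these 4 windows, against 6.75% and 3.33% of all. These matches describe letters in the sequence, not binding, and their relation to the levels was not tested. For Csf2 the RefSeq start lies 232 bases from the nearest GENCODE start, and its window is not shown. That window holds 1 GATAA match, 246 bases before the RefSeq start. Rad50 has no entry.

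Library totals ran from 4.87 to 25.2 M counts, with a median of 10.5 M. Levels are given as CPM, counts scaled to an effective library size of 1 M (1 followed by 6 zeros); 3 counts in a single library correspond to between 0.127 and 0.580 CPM. Tfh replicate 1, the shallowest library, stood apart from all others on the second principal component, at 137 against -12.7 to -3.38 for the other Tfh libraries. For each library, the deviation of each gene's log2 CPM from the mean of its condition was correlated with the gene's GC content (Spearman). The correlation was 0.38 or more in 5 libraries, Tfh replicate 4, Th17 replicates 4 and 5 and Th1 replicates 3 and 4. The 10 others ranged from -0.64 to 0.049. CD4 T cell markers were high in every library. The 7 CD4 T cell markers summed to 6677 to 9131 CPM in Tfh, 5988 to 6791 CPM in Th17 and 3806 to 4760 CPM in Th1 libraries, while 6 of 9 mast cell and basophil markers, among them Mcpt8, Fcer1a and Ms4a2, had no count in any library. Some markers of other cells were present in Th1 libraries, where the CD4 sum was lowest: Ebf1 averaged 17.4 CPM, Kit 8.73 CPM, Cd8a 5.52 CPM and Trdc 31.9 CPM. Trgc1, a gamma-delta T cell marker like Trdc, was lowest there, at 1.01 CPM against 8.43 CPM in Tfh and 9.41 CPM in Th17. As these are bulk samples, fewer cells making a transcript and less transcript per cell cannot be told apart.

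Il3 was a transcript of the Th1 libraries, with next to none in the others. It had 0, 0, 0, 0 and 0.0988 CPM in Tfh libraries, 0, 0.106, 0.170, 0.189 and 0 CPM in Th17 libraries, and 131, 119.5, 106, 87.2 and 123.5 CPM in Th1 libraries. The Th1 libraries lay far above all others without overlap, and the Tfh and Th17 libraries overlapped near 0. Over all libraries this came to 1 Tfh read, 5 Th17 reads and 7069 Th1 reads. The Tfh value rests on that single read: the pooled level was 4960 times higher in Th1 than in Tfh cells, with a 95% interval from 890 to 195900 that covers counting error only.

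In the fit across all genes, Il3 fell by 10.04 ± 0.35 on the log2 scale in Th17 relative to Th1 cells (SE; edgeR adjusted p = 1.57e-13). The fitted difference of Tfh to Th1 cells was -11.7 ± 0.41 (adjusted p = 8.58e-14), and it became -13.27 without Tfh replicate 5, which held the only read. Ordered from the lowest fold change of 12591 genes, Il3 came at rank 4 for Tfh over Th1 and rank 6 for Th17 over Th1. Between Tfh and Th17 cells Il3 did not pass the test (-1.66 ± 0.97, adjusted p = 0.311), and the ratio of Th17 to Tfh levels had an interval from 0.482 to 204.

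Csf2, the neighbour of Il3, was low in every condition but graded. It had 1.55, 1.84, 0.572, 0.0995 and 0.198 CPM in Tfh libraries, 1.52, 3.81, 2.04, 2.07 and 0.697 CPM in Th17 libraries, and 5.19, 5.22, 9.28, 7.29 and 6.98 CPM in Th1 libraries. Every Th1 library lay above every Tfh and Th17 library, while the Tfh and Th17 libraries overlapped. Csf2 fell by 3.11 ± 0.60 on the log2 scale in Tfh relative to Th1 cells (adjusted p = 0.000311). In Th17 relative to Th1 cells, Csf2 fell by 1.75 ± 0.54 (adjusted p = 0.0164). The fitted difference of Tfh to Th17 cells, -1.36 ± 0.60, did not pass (adjusted p = 0.141, unadjusted p = 0.0371). Csf2 rested on 31 reads in Tfh, 103 in Th17 and 471 in Th1 libraries. Leaving out the 5 libraries with the high GC correlation gave -1.27 for Th17 over Th1 with an adjusted p of 0.211, which ended that call, and -2.57 for Tfh over Th1 (adjusted p = 0.00606). The Tfh over Th1 difference was -3.68 without Tfh replicate 2, which has the highest Tfh level.

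Csf2 mRNA was lower in the Th17 than in the Th1 libraries. Per kb of exon, in Th1 cells, Il3 averaged 180 ± 27.4 and Csf2 8.49 ± 2.12 CPM per kb (SD, n = 5). In Th17 cells the order was the other way, with 0.148 ± 0.143 for Il3 and 2.54 ± 1.43 CPM per kb for Csf2, as in Tfh cells, with 0.0314 ± 0.0702 for Il3 and 1.06 ± 0.993 CPM per kb for Csf2.

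Some markers of other cells moved with these genes. Of the 9 mast cell and basophil markers, whose cells can make IL-3, the sum ran from 0.967 to 4.52 CPM in Tfh, 0.820 to 3.18 CPM in Th17 and 6.77 to 10.9 CPM in Th1 libraries, nearly all of it Kit, the stem cell factor receptor, while Cpa3 and Gata2 had 0 counts in Tfh and Th17 and means of 0.0254 and 0.0170 CPM in Th1. The 6 B cell markers summed to 0 to 3.38, 0.847 to 3.48 and 12.8 to 25.03 CPM in Tfh, Th17 and Th1 libraries, mostly as Ebf1 (17.4 CPM in Th1), with Pax5 at 0 everywhere. The 2 CD8 markers summed to 5.22 to 11.3, 6.19 to 16.0 and 7.29 to 26.1 CPM in the same order, with Cd8a at 0 in Tfh. The 6 myeloid markers stayed at or below 3.09 CPM in sum in every library, and the 4 eosinophil markers at or below 1.14 CPM. The 6 NK, NKT and innate lymphoid markers summed to 45.0 to 99.9 CPM in Tfh, 46.6 to 83.6 CPM in Th17 and 15.2 to 26.6 CPM in Th1 libraries, with Ncr1 at 0 in all. Most of each sum was Rora, at 63.4, 63.7 and 15.2 CPM on average in Tfh, Th17 and Th1 cells. Eomes went the other way, at 0.26, 0.12 and 4.50 CPM. The gamma-delta markers, 4 of 5 of them counted, summed to 12.8 to 28.3, 13.7 to 20.3 and 21.3 to 45.8 CPM in the same order. Trdc averaged 15.1, 6.46 and 31.9 CPM and Sox13 0, 0.0565 and 1.97 CPM in Tfh, Th17 and Th1 cells. Trgc1 went the other way, at 8.43, 9.41 and 1.01 CPM, and Trdv4 had no count. The part of these in the results was not tested.

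Il13, Il5 and Il4 did not reach the default filter on low counts and so had no value in the main fit. Il13, which acts on epithelium and smooth muscle, had no read in any Tfh or Th17 library. In Th1 libraries it had 0, 11, 13, 12 and 15 reads in replicates 1 to 5, or 0.800 ± 0.523 CPM (SD, n = 5). Thus 4 of 5 Th1 libraries held reads and 1 overlapped with the other conditions at 0. Against a floor of 3 reads over a condition, Il13 was at least 11.9-fold lower in Tfh and at least 13.9-fold lower in Th17 than in Th1 cells. The exact two-sided permutation test on log2(CPM + 0.1) gave p = 0.0476 for each of these comparisons, unadjusted, where the smallest p it can give is 0.00794. In a fit without the filter, over 18063 genes, the edgeR adjusted p was 0.00959 for Tfh over Th1 and 0.0106 for Th17 over Th1. Per kb of exon the Th1 level of Il13 was 0.664 ± 0.434 CPM per kb, below that of Csf2 in the same cells.

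Il5 had 4 reads in all, 2 each in Th1 replicates 2 and 3, and 0 in every Tfh and Th17 library. The exact permutation test gave p = 0.444 for each comparison with Th1. Il4, the cytokine that Tfh cells make in germinal centres in the body, had 6 reads in all in Tfh libraries, every one in replicate 2 (0.848 CPM), 0 in Th17 libraries, and 9 in Th1 libraries, every one in replicate 3 (0.382 CPM). The exact permutation p was 1 in each comparison of Il4. A count of 0 over the 5 Th17 libraries allows a level of up to 0.0579 CPM for Il4, and the same limit in Tfh libraries for Il5 and Il13 was 0.0672 CPM. No difference in Il4 or Il5 was detectable at this depth.

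**Figure D1:**
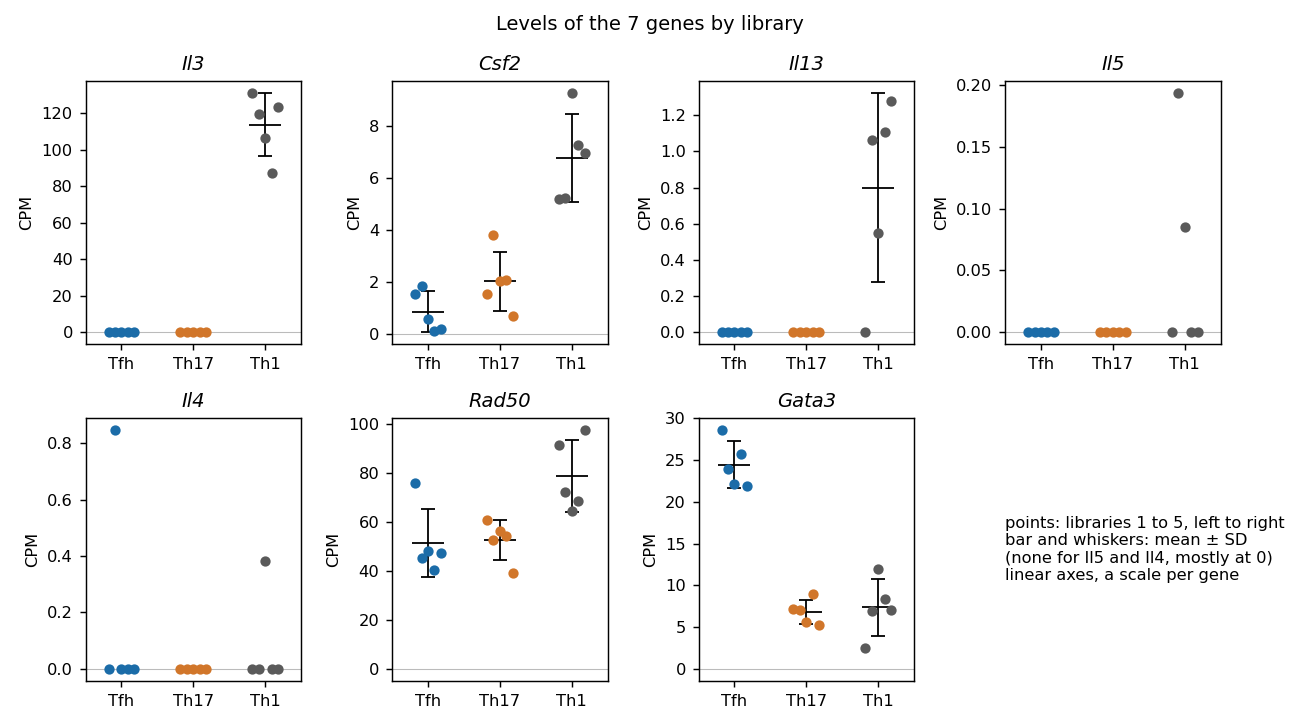
CPM of each of the 7 genes (linear axes, a scale per gene) in the 5 libraries of Tfh, Th17 and Th1 cells; points are libraries, bars and whiskers are mean ± SD. Il3 stands between 87.2 and 131 CPM in Th1 libraries and at or below 0.189 CPM in all others, while Gata3 stands between 21.8 and 28.6 CPM in Tfh libraries, above all others.

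Gata3 was highest in Tfh cells. It had 28.6, 23.9, 22.1, 25.7 and 21.8 CPM in Tfh libraries, 7.14, 7.09, 5.61, 8.95 and 5.32 CPM in Th17 libraries, and 2.52, 6.96, 12.0, 8.40 and 7.07 CPM in Th1 libraries. Every Tfh library lay above every Th17 and Th1 library, and the Th17 libraries lay within the range of the Th1 libraries. Gata3 rose in Tfh relative to Th17 cells by 1.84 ± 0.29 on the log2 scale, 3.57-fold (adjusted p = 0.000216), at rank 125 from the highest fold change of 12591 genes. In Tfh relative to Th1 cells it rose by 1.70 ± 0.29, 3.24-fold (adjusted p = 7.29e-05), at rank 881 from the highest. Without Tfh replicate 1 these log2 differences were 1.78 and 1.64, both still called. Th17 over Th1 did not pass (-0.14 ± 0.29, adjusted p = 0.744), and the sign turned to 0.09 without Th1 replicate 3. The Tfh cells, with the most Gata3, had no read for Il13.

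Rad50, a gene used in every cell type, varied least. It had 76.0, 45.5, 48.3, 40.4 and 47.6 CPM in Tfh libraries, 60.9, 52.9, 56.4, 54.3 and 39.1 CPM in Th17 libraries, and 91.7, 72.2, 64.5, 68.6 and 97.8 CPM in Th1 libraries. The Th1 libraries lay above all Th17 libraries, and Tfh replicate 1 lay above 3 of the Th1 libraries. Rad50 fell by 0.62 ± 0.18 in Tfh relative to Th1 cells (adjusted p = 0.0087) and fell by 0.58 ± 0.18 in Th17 relative to Th1 cells (adjusted p = 0.0166). Without Tfh replicate 1 the Tfh over Th1 difference was -0.79 (adjusted p = 0.000608). Tfh over Th17 was -0.04 ± 0.18 (adjusted p = 0.926).

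Over the 4 members that passed the filter, 1 of 4 was called for Tfh over Th17, where 16.8% of all genes tested were called (6.80% higher, 9.98% lower). For Tfh over Th1 4 of 4 were called, 1 higher and 3 lower, against 49.3% of all genes (24.1% higher, 25.2% lower). For Th17 over Th1 3 of 4 were called, all lower, against 36.9% (19.0% higher, 17.8% lower). The median log2 fold change of the 4 was -0.70, -1.86 and -1.17 in these 3 comparisons, and that of all genes tested -0.00959, -0.00836 and 0.025. Libraries did not overlap for 1 of 4 members in Tfh over Th17 (14.5% of all genes, 5.74% higher and 8.72% lower), for 3 of 4 in Tfh over Th1 (34.3%, 16.1% higher and 18.2% lower) and for 3 of 4 in Th17 over Th1 (28.8%, 14.5% higher and 14.3% lower). Those 4 passed partly through the condition where they are high, so these counts are descriptive. The comparisons share libraries and are not independent.

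**Figure D2:**
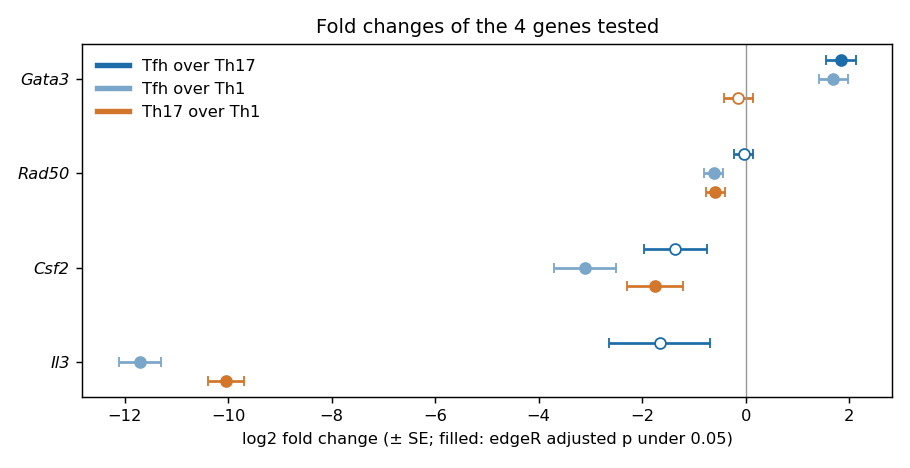
Log2 fold change (x axis, with SE) of the 4 members that passed the filter, by comparison; filled points passed at an adjusted p under 0.05. Gata3 lies at 1.84 and 1.70 for Tfh over Th17 and Tfh over Th1, Il3 at -11.7 and -10.04 for Tfh and Th17 over Th1.

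Several partners and opponents of GATA3, among them Tbx21, Runx3 and Sox4, differed between the conditions. Of the 23 genes in a list of the GATA family and GATA3 partners, Gata3 included, 17 were tested. Among them, 3 rose and 1 fell in Tfh relative to Th17, and 9 rose and 4 fell in Tfh relative to Th1. In Th17 relative to Th1, 5 rose and 4 fell. Of all genes tested, 16.8%, 49.3% and 36.9% were called for Tfh over Th17, Tfh over Th1 and Th17 over Th1. Tbx21 averaged 3.77 ± 0.834 CPM in Tfh, 2.55 ± 1.08 CPM in Th17 and 181 ± 58.0 CPM in Th1 cells (SD, n = 5), and fell by 5.58 in Tfh and fell by 6.14 in Th17 relative to Th1 cells (adjusted p = 2.89e-11 and 1.91e-11). Runx3, which acts with T-bet to silence Il4, averaged 72.0 ± 19.5, 126.6 ± 33.3 and 321 ± 130 CPM in Tfh, Th17 and Th1 cells. It fell by 2.16 in Tfh and by 1.34 in Th17 relative to Th1 cells (adjusted p = 1.54e-06 and 0.000345), and by 0.81 in Tfh relative to Th17 cells (adjusted p = 0.0322), a call lost on leaving out any of 7 single libraries, with adjusted p up to 0.0961.

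Sox4, an HMG-box factor known to oppose GATA3 in Th2 cells, followed the order of Tfh over Th17 over Th1. It averaged 152 ± 41.7 CPM in Tfh, 37.9 ± 13.0 CPM in Th17 and 2.65 ± 1.32 CPM in Th1 cells, a rise of 2.001 for Tfh over Th17, 5.82 for Tfh over Th1 and 3.82 for Th17 over Th1 on the log2 scale (adjusted p = 0.000122, 2.29e-10 and 5.38e-08). Zfpm1, which encodes FOG-1, a cofactor that represses GATA3, had 23.3 ± 9.32, 18.3 ± 5.65 and 70.5 ± 43.1 CPM in Tfh, Th17 and Th1 cells and fell by 1.59 in Tfh and by 1.95 in Th17 relative to Th1 cells (adjusted p = 0.00126 and 0.000343). For Zfpm1 the Tfh libraries overlapped with the Th1 libraries. Bcl11b, a T cell identity factor, rose by 0.71 in Tfh relative to Th17 cells (adjusted p = 0.000619), and Ldb1, an adaptor of GATA factors, rose by 1.05 in Tfh relative to Th1 cells (adjusted p = 0.000937). Gata1, named after its values were seen, averaged 0.302 ± 0.352, 0.234 ± 0.206 and 3.41 ± 1.23 CPM in Tfh, Th17 and Th1 cells. It fell by 3.28 in Tfh relative to Th1 cells (adjusted p = 0.00132; -4.03 without Tfh replicate 3) and fell by 3.75 in Th17 relative to Th1 cells (adjusted p = 0.000761). Gata5, Gata6 and Zfpm2 had no count.

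Maf, which encodes c-Maf, an activator of Il4 in Th2 and Tfh cells, averaged 1630 ± 350 CPM in Tfh, 798 ± 194 CPM in Th17 and 10.7 ± 2.75 CPM in Th1 cells. It rose by 1.03 in Tfh relative to Th17 cells (adjusted p = 0.00125), by 7.25 in Tfh relative to Th1 cells (adjusted p = 1.29e-13) and by 6.22 in Th17 relative to Th1 cells (adjusted p = 8.55e-13), without overlap of libraries in any of them. Il4 had reads in only 1 of the 5 Tfh libraries, the condition with the highest Maf and Gata3 means. Of the list of other Th2 programme genes, Maf included, 26 of 32 were tested, of which 3 rose and 8 fell in Tfh relative to Th17, 10 rose and 6 fell in Tfh relative to Th1, and 10 rose and 5 fell in Th17 relative to Th1 cells. Called shares of all genes tested were 16.8%, 49.3% and 36.9% in these comparisons.

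Other genes of the Th2 programme moved in opposite directions. Il1rl1, the receptor for IL-33 and a marker of Th2 cells, averaged 0.0550 ± 0.0850 CPM in Tfh, 0.0340 ± 0.0760 CPM in Th17 and 17.4 ± 5.28 CPM in Th1 cells, resting on 2 reads in Tfh and 2 reads in Th17 libraries. The ratio of pooled Th1 to Tfh levels was 361, with an interval from 99.6 to 2982, and that of Th1 to Th17 was 419, from 116 to 3462 (adjusted p = 2.6e-09 and 2.6e-09). The fitted difference of Tfh to Th1 cells was -8.26 (-8.90 without Tfh replicate 1), and that of Th17 to Th1 cells -8.44 (-10.55 without Th17 replicate 3). Ccr8, a chemokine receptor of Th2 and regulatory T cells, was lowest in Th1 cells, with 120.9 ± 29.5, 45.2 ± 9.62 and 12.1 ± 5.75 CPM in Tfh, Th17 and Th1 cells. It rose by 1.42 in Tfh relative to Th17 (adjusted p = 0.00154), by 3.29 in Tfh relative to Th1 (adjusted p = 4.66e-08) and by 1.88 in Th17 relative to Th1 cells (adjusted p = 4.42e-05).

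Nfil3, a bZIP factor, fell by 1.36 in Tfh relative to Th17, fell by 2.97 in Tfh relative to Th1 and fell by 1.601 in Th17 relative to Th1 cells (adjusted p = 3.06e-05, 1.86e-10 and 5.89e-07). Nfatc1, a factor of the calcium pathway, rose by 0.59 in Tfh relative to Th17 cells (adjusted p = 0.0326), a call lost on leaving out any of 6 single libraries, with adjusted p up to 0.0853. Rbpj, the effector of Notch, fell by 1.20 in Tfh relative to Th17 cells (adjusted p = 6.72e-06), and Notch2 fell by 1.45 in Tfh and by 1.22 in Th17 relative to Th1 cells (adjusted p = 4e-06 and 4.25e-05). Dusp10, a phosphatase, rose by 1.98 in Tfh relative to Th1 cells (adjusted p = 5.83e-09). Cyp11a1, a steroid-making enzyme, rose by 2.24 in Th17 relative to Th1 cells (adjusted p = 2.62e-07) and fell by 0.75 in Tfh relative to Th17 cells (adjusted p = 0.0216), a call lost without Tfh replicate 2 or 5 or Th17 replicate 3, with adjusted p up to 0.0618. Il9, a cytokine of Th9 and Th2 cells named after its values were seen, averaged 0.0283 ± 0.0632, 2.98 ± 1.95 and 0.267 ± 0.487 CPM in Tfh, Th17 and Th1 cells. It rose by 3.64 in Th17 relative to Th1 cells (adjusted p = 0.00638), and by 5.11 without Th1 replicate 1.

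**Figure D3:**
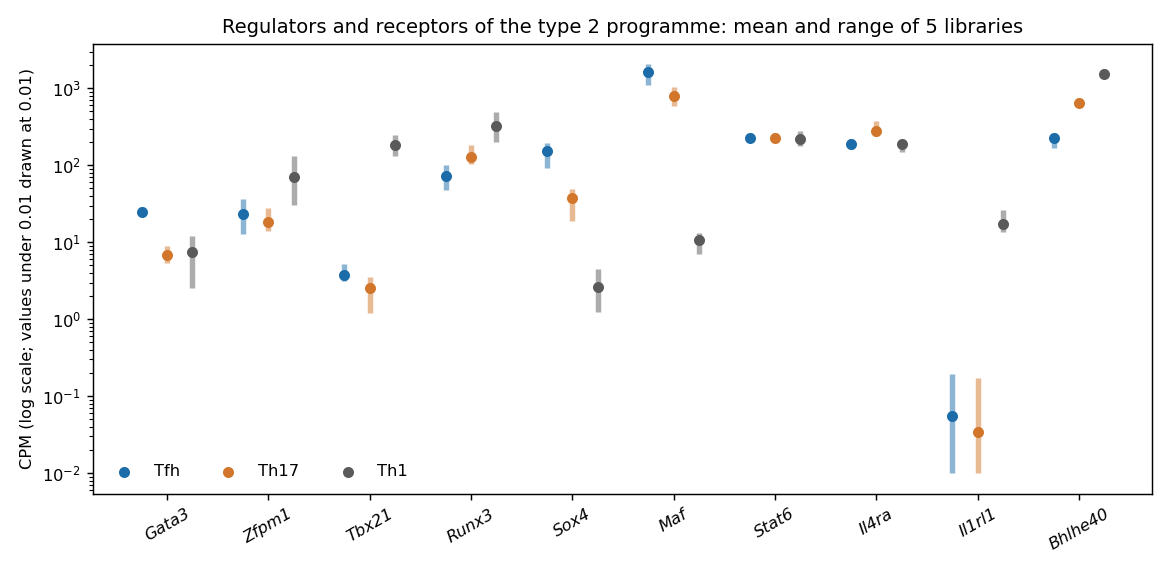
CPM (log axis) of Gata3 and 9 regulators and receptors of the type 2 programme; points are means and bars the range of 5 libraries, with Tfh, Th17 and Th1 side by side, and values under 0.01 drawn at 0.01. Maf stands at 1630, 798 and 10.7 CPM and Tbx21 at 3.77, 2.55 and 181 CPM in Tfh, Th17 and Th1 cells, while Stat6 is level at 225, 224 and 223 CPM.

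The IL-4 receptor and STAT6 genes were on in all conditions. Stat6, which carries the IL-4 signal to Gata3, averaged 225 ± 25.6 CPM in Tfh, 224 ± 23.6 CPM in Th17 and 223 ± 47.9 CPM in Th1 cells and passed the test in no comparison (adjusted p = 0.985, 0.939 and 0.969 for Tfh over Th17, Tfh over Th1 and Th17 over Th1). Its log2 differences were 0.01 ± 0.14, 0.02 ± 0.14 and 0.01 ± 0.14; the differences to Th1 cells changed sign with RLE scaling, and that of Tfh to Th17 cells when some single libraries were left out. Il4ra, the IL-4 receptor alpha chain, averaged 188 ± 21.5, 280 ± 56.4 and 191 ± 29.1 CPM in Tfh, Th17 and Th1 cells. It fell by 0.57 in Tfh relative to Th17 cells (adjusted p = 0.0104) and rose by 0.55 in Th17 relative to Th1 cells (adjusted p = 0.00552), and its Tfh over Th1 difference was -0.02 (adjusted p = 0.928), with a sign that changed to 0.05 on library sizes alone.

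Of the 13 genes on the list of receptors and signalling of IL-4 and IL-13, 12 were tested, of which 3 rose and 2 fell in Tfh relative to Th17, 5 rose and 2 fell in Tfh relative to Th1, and 3 rose and 3 fell in Th17 relative to Th1 cells. Over all genes tested, 16.8%, 49.3% and 36.9% were called in these comparisons. Jak1, a kinase of the receptor, rose by 0.50 in Tfh relative to Th17, by 1.30 in Tfh relative to Th1 and by 0.80 in Th17 relative to Th1 cells (adjusted p = 0.00342, 1.54e-08 and 1.15e-05), and Jak2 rose by 0.88 in Tfh relative to Th1 cells (adjusted p = 0.00209). Irs2, an adaptor that the IL-4 receptor uses, fell by 2.42 in Tfh and by 2.17 in Th17 relative to Th1 cells (adjusted p = 1.27e-05 and 5.37e-05). Socs5, a negative regulator of IL-4 signalling, rose by 0.73 in Tfh relative to Th17 and by 1.03 in Tfh relative to Th1 cells (adjusted p = 0.0107 and 0.000171). Ptpn6, the phosphatase SHP-1, rose by 0.55 in Tfh relative to Th17 cells (adjusted p = 0.0115), and Il2rg, the common gamma chain, rose by 0.58 in Th17 relative to Th1 cells (adjusted p = 0.00422). Il13ra2 had no count.

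On the receiving side of IL-3, IL-5 and GM-CSF, 4 of 7 listed genes were tested and 1, Stat5a, was called. All genes tested were called at 16.8% for Tfh over Th17, 49.3% for Tfh over Th1 and 36.9% for Th17 over Th1. Stat5a, which carries signals of these receptors and of IL-2, averaged 108 ± 16.5 CPM in Tfh, 163 ± 19.5 CPM in Th17 and 358 ± 50.2 CPM in Th1 cells. It fell by 0.59 in Tfh relative to Th17, by 1.73 in Tfh relative to Th1 and by 1.13 in Th17 relative to Th1 cells (adjusted p = 0.00519, 7.5e-09 and 2.43e-06). The alpha chains Il3ra, at 26.5 ± 9.51, 13.2 ± 4.75 and 20.2 ± 12.4 CPM, and Csf2ra, at 12.1 ± 6.86, 8.54 ± 4.32 and 15.9 ± 6.98 CPM in Tfh, Th17 and Th1 cells, passed in no comparison. The shared beta chain Csf2rb had 13, 14 and 23 reads in all in the same order, and is uncertain because Csf2rb2 is a near-identical copy. Il5ra had none.

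Regulators of Csf2 were tested for all 17 listed genes, of which 5 rose and 3 fell in Tfh relative to Th17, 10 rose and 6 fell in Tfh relative to Th1, and 10 rose and 4 fell in Th17 relative to Th1 cells. In the same comparisons 16.8%, 49.3% and 36.9% of all genes tested were called. Bhlhe40, a factor needed for GM-CSF production by helper cells, averaged 229 ± 42.8 CPM in Tfh, 650.0 ± 53.4 CPM in Th17 and 1521 ± 183 CPM in Th1 cells. The means of Csf2 had the same order, though Csf2 did not pass between Tfh and Th17 cells. Bhlhe40 fell by 1.502 in Tfh relative to Th17, by 2.73 in Tfh relative to Th1 and by 1.23 in Th17 relative to Th1 cells (adjusted p = 8.68e-07, 1.64e-11 and 7.59e-07). The receptors that induce GM-CSF in Th17 cells had other orders. Il23r averaged 13.5 ± 2.999, 57.9 ± 21.2 and 31.4 ± 16.2 CPM in Tfh, Th17 and Th1 cells and fell by 2.10 in Tfh relative to Th17 cells (adjusted p = 0.000166). Il1r1 averaged 228 ± 43.9, 124 ± 3.07 and 1.74 ± 0.446 CPM and rose by 0.88, 6.98 and 6.10 for Tfh over Th17, Tfh over Th1 and Th17 over Th1 (adjusted p = 0.000422, 1.27e-14 and 7.07e-14).

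Ikzf3, which encodes Aiolos, averaged 897 ± 154 CPM in Tfh, 342 ± 24.99 CPM in Th17 and 49.7 ± 5.63 CPM in Th1 cells, opposite to the order of the Csf2 means, and rose by 1.39, 4.17 and 2.78 in the 3 comparisons (adjusted p = 1.32e-06, 8.58e-14 and 1.43e-11). Zfp36, which speeds the decay of cytokine mRNAs with AU-rich ends, rose by 1.26 in Tfh relative to Th17 cells (adjusted p = 7.51e-06). Rel, an NF-κB subunit that binds the Csf2 promoter, fell by 0.81 in Tfh and by 0.76 in Th17 relative to Th1 cells (adjusted p = 0.00743 and 0.0148), and Nfat5, the NFAT family member of the osmotic stress response, fell by 1.39 in Tfh and by 1.34 in Th17 relative to Th1 cells (adjusted p = 7.11e-07 and 1.71e-06).

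Genes around the cytokine genes moved in both directions. Of 27 counted genes within 500 kb of the 6 members on chromosome 11, 16 were tested, of which 2 rose and 4 fell in Tfh relative to Th17, 2 rose and 6 fell in Tfh relative to Th1, and 2 rose and 3 fell in Th17 relative to Th1 cells. The shares of all genes tested that were called in these comparisons were 16.8%, 49.3% and 36.9%. Acsl6, an acyl-CoA synthetase gene 36.5 kb from Il3, had 0.155 ± 0.346 CPM in Tfh, 0.121 ± 0.169 CPM in Th17 and 25.5 ± 5.43 CPM in Th1 cells, the pattern of Il3. It fell by 7.91 in Tfh relative to Th1 cells (adjusted p = 3.49e-08; -11.14 without Tfh replicate 1, which held its Tfh reads) and fell by 7.64 in Th17 relative to Th1 cells (adjusted p = 4.15e-08; -8.30 without Th17 replicate 1). Kif3a, a kinesin gene 8.2 kb from Il4, was level at 17.8 ± 9.80, 19.0 ± 6.01 and 19.1 ± 2.87 CPM in Tfh, Th17 and Th1 cells and passed in no comparison (adjusted p = 0.845, 0.772 and 0.994).

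Irf1, an interferon-induced factor gene 44.9 kb from Il5, averaged 45.7 ± 5.58 CPM in Tfh, 35.0 ± 4.50 CPM in Th17 and 131.5 ± 17.1 CPM in Th1 cells. It fell by 1.52 in Tfh and by 1.91 in Th17 relative to Th1 cells (adjusted p = 5.28e-08 and 4.36e-09), and its Tfh over Th17 difference was 0.39 (adjusted p = 0.0683). P4ha2, a collagen hydroxylase gene 115.6 kb from Csf2, averaged 2.17 ± 1.32, 22.6 ± 3.54 and 20.8 ± 2.99 CPM in Tfh, Th17 and Th1 cells, and fell by 3.37 in Tfh relative to Th17 and fell by 3.26 in Tfh relative to Th1 cells (adjusted p = 3.22e-06 and 3.1e-07). Septin8, on the other side of Il4, fell by 1.396 in Tfh relative to Th17 and fell by 2.37 in Tfh relative to Th1 cells (adjusted p = 0.000185 and 4.78e-08). Rapgef6, a Rap exchange factor gene 255.5 kb past Il3, rose by 0.88 in Tfh relative to Th17, by 1.83 in Tfh relative to Th1 and by 0.95 in Th17 relative to Th1 cells (adjusted p = 0.00237, 1.83e-07 and 0.000405), and Aff4, a transcription elongation factor gene, rose by 0.62 in Tfh relative to Th17 and by 1.01 in Tfh relative to Th1 cells (adjusted p = 0.0121 and 4.34e-05).

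**Figure D4:**
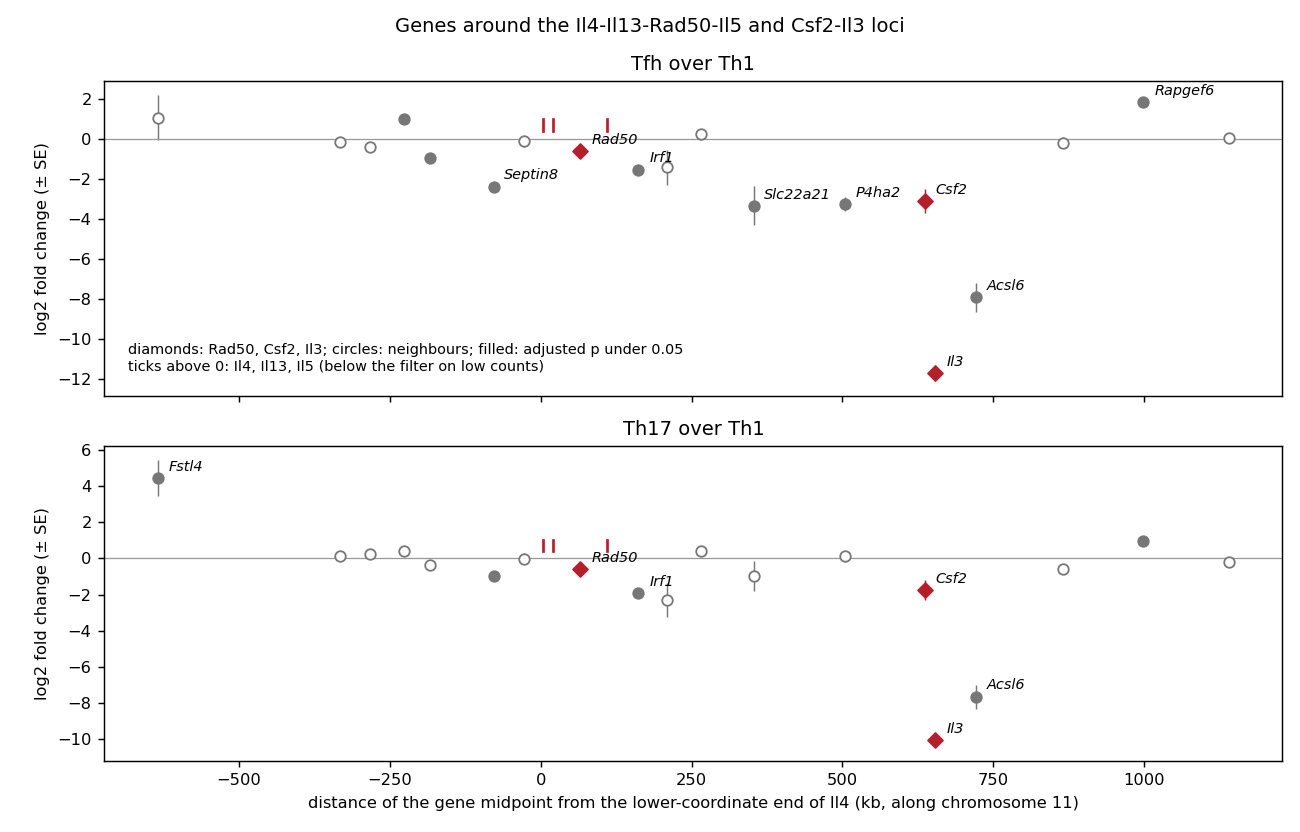
Log2 fold change (with SE) of genes on chromosome 11 against the distance of their midpoint from the lower-coordinate end of Il4 in kb, for Tfh over Th1 (above) and Th17 over Th1 (below); red diamonds are Rad50, Csf2 and Il3, grey circles neighbours, ticks Il4, Il13 and Il5, and filled symbols passed at an adjusted p under 0.05. Il3 at -11.7 and -10.04 and Acsl6 at -7.91 and -7.64 lie lowest, and Kif3a, the circle next to Il4, lies at -0.11 and -0.00327.

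Around Gata3, 5 of 9 counted genes within 500 kb were tested, of which 1 rose and 0 fell in Tfh relative to Th17, 1 rose and 3 fell in Tfh relative to Th1, and 0 rose and 2 fell in Th17 relative to Th1 cells. Beside these stand 16.8%, 49.3% and 36.9% of all genes tested, called in the same comparisons. Itih5, a hyaluronan-binding protein gene 265.6 kb away, averaged 7.24 ± 3.82, 2.76 ± 1.04 and 50.3 ± 5.73 CPM in Tfh, Th17 and Th1 cells, and fell by 2.79 in Tfh and by 4.19 in Th17 relative to Th1 cells (adjusted p = 4.35e-07 and 8.49e-09). Sfmbt2, a Polycomb-group gene, fell by 1.46 in Th17 relative to Th1 cells (adjusted p = 0.00689), and Atp5c1, an ATP synthase subunit gene, fell by 0.66 in Tfh relative to Th1 cells (adjusted p = 0.00101). No neighbour of Gata3 passed as higher in Tfh cells relative to both other conditions.

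The complex that RAD50 forms with MRE11 and NBN was followed through 9 of 11 listed genes of DNA break repair, Rad50 included. Of these, 0 rose and 2 fell in Tfh relative to Th17, 1 rose and 4 fell in Tfh relative to Th1, and 2 rose and 3 fell in Th17 relative to Th1 cells. As a share of all genes tested, 16.8%, 49.3% and 36.9% were called in these comparisons. Mre11a, the nuclease of the complex, fell as Rad50 did, by 0.94 in Tfh and by 0.56 in Th17 relative to Th1 cells (adjusted p = 2.24e-05 and 0.00423). Nbn, the other partner, passed in no comparison: its difference was -0.34 for Tfh over Th17, -0.09 for Tfh over Th1 and 0.25 for Th17 over Th1 (adjusted p = 0.369, 0.777 and 0.443). Mdc1, a scaffold at breaks, fell by 0.86 in Tfh relative to Th1 cells (adjusted p = 0.000125), and Brca1 fell by 0.82 in Tfh relative to Th17 and by 0.71 in Tfh relative to Th1 cells (adjusted p = 0.00101 and 0.000856). Trp53bp1, which favours end joining, rose by 0.38 in Tfh and by 0.40 in Th17 relative to Th1 cells (adjusted p = 0.0103 and 0.00894).

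The genes whose levels followed each member most closely over the 15 libraries were listed by Pearson's r of log2(CPM + 0.5) among 9211 candidates, as a description; the points share 3 conditions of 5 libraries each and are not independent. For Il3 they were Dnah3 (0.998), Ifng (0.998), on which the Th1 sort acted, and Ffar2 (0.997), with means of 14.9, 839.9 and 25.6 CPM in Th1 cells and at most 0.510 CPM in the other conditions. For Csf2 they were Tmem154 (0.951), Ptpn3 (0.940) and Nicn1 (0.926). For Gata3 they were R3hdm2 (0.949), Rassf2 (0.927) and Ago1 (0.926); R3hdm2 averaged 253.6 ± 14.4 CPM in Tfh, 159.6 ± 8.68 CPM in Th17 and 167.5 ± 31.4 CPM in Th1 cells. For Rad50 they were Luc7l (0.922), Eif2ak2 (0.922) and Srbd1 (0.906).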

How the data were processed

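mRNA libraries of 15 samples, 5 each of Tfh, Th17 and Th1 cells, used 100 ng RNA each and the Lexogen SENSE kit, per the labels' protocols. The values deposited by the authors are raw read counts per Entrez gene ID. Per the submitters' processing notes, STAR 2.7.2b, featureCounts 1.6.4 and mm10 were used; annotation, strand setting and handling of multi-mapped reads: not given in the sources used here. Names and coordinates come from RefSeq GRCm38.p6 and GENCODE M21. No label says that replicates are separate mice or cultures; p-values then measure only the spread between these libraries, possibly technical. Pairs of libraries in a condition differed by a chi-square of at least 9.64 per gene, so no pair was the same library within counting noise; repeat preparations of 1 RNA would not be seen this way.

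In R 4.3.3, edgeR 4.0.16 fitted 1 quasi-likelihood model with robust spread to all libraries with TMM scaling; 12591 genes passed the default filter and 5472 others with a count did not. Calls used an adjusted p (Benjamini-Hochberg, all tested genes) under 0.05. Errors are SD of 5 libraries for levels and SE for log2 fold changes. Members below the filter had an exact two-sided permutation test over 252 splits. Alternatives were DESeq2 1.42.0, limma-voom 3.58.1, other scaling and filters, GC correction, a replicate block and leaving out libraries. Intervals of ratios (Clopper-Pearson, 95%), limits of pooled levels (exact Poisson, 95%) and floors of 3 counts reflect counting error alone. This is because PCR copies are not independent molecules. The members and gene lists were chosen with earlier results of these data known. Named genes are the members, 8 regulators (Stat6, Il4ra, Zfpm1, Tbx21, Maf, Bhlhe40, Irf1, Il1rl1) and genes taken by a rule. Per list or neighbourhood, direction and comparison, the rule takes up to 3 called genes with the largest fold changes. It asks for no overlap of libraries and a mean of at least 10 CPM. Gata1 and Il9 are marked as exceptions. Also outside this rule are Kif3a, Nbn, Il3ra, Csf2ra and Csf2rb, the cell markers, genes without counts and genes named for likeness. A gene that this rule takes from the regulators of Csf2 is not reported here.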

Additional observations from a re-analysis of the deposited data

Results flagged for a closer look

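Of 21 groups of 5 libraries (7 genes in 3 conditions), 4 held a library far from the other 4. In 3 of the 4 the other libraries were all at 0, so that a single library with reads is set apart whatever its level, and the usual rate of about 1 in 20 groups by chance does not apply. Il3 had 0.0988 CPM in Tfh replicate 5, its only read in Tfh cells, against 0 in the other Tfh libraries. Il4 had 0.848 CPM in Tfh replicate 2 and 0 in the other Tfh libraries. Il4 also had 0.382 CPM in Th1 replicate 3, the deepest library, and 0 in the other Th1 libraries. Rad50 had 76.0 CPM in Tfh replicate 1, the shallowest library, against 40.4 to 48.3 CPM in the other Tfh libraries.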

How the results depend on the processing

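Under other scaling, filters, tests, GC correction, the replicate block and leaving out single libraries, every call of a member kept its direction and its side of the threshold. A further split was chosen after seeing the data. In the 10 libraries with a GC correlation under 0.3, Csf2 in Th17 over Th1 was -1.27 (adjusted p = 0.211), and Gata3 in Th17 over Th1 changed sign to 0.20 without being called; there, Il1rl1 in Tfh over Th17 was -0.14 and Il4ra in Tfh over Th1 0.0835. Rad50 in Tfh over Th17, never called, was 0.00646 on library sizes alone, 0.0243 with GC correction and 0.00416 with GC correction and the replicate block, and ranged from -0.214 to 0.0381 when single libraries were left out. Gata3 in Th17 over Th1 likewise ranged from -0.346 to 0.0861.

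Stat6, never called, was -0.0166 with RLE size factors, -0.00768 with a strict filter, -0.0168 with DESeq2 and -0.00173 in a fit of the 2 conditions alone for Tfh over Th1, and -0.0515, -0.0283 and -0.0518 under the first 3 of these for Th17 over Th1. Leaving out single libraries, Stat6 ranged from -0.061 to 0.0824 for Tfh over Th17, -0.0564 to 0.0904 for Tfh over Th1 and -0.0888 to 0.0774 for Th17 over Th1. Il4ra in Tfh over Th1 was 0.0469 on library sizes alone and ranged from -0.0977 to 0.0246, and Il1rl1 in Tfh over Th17 from -0.447 to 2.27, without single libraries.

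For Tfh over Th17, GC correction gave 3383 genes called (1672 higher), against 2113. GC correction with the replicate block gave 3945 (1929 higher, 2016 lower). Libraries were also compared by the deviation of each gene's log2 CPM from the mean of its condition. In these deviations, same-numbered libraries of different conditions correlated at -0.0748 to 0.466, over 0.1 in 5 of 15 pairs. Differently numbered ones correlated at -0.41 to 0.52. Of the 15 libraries, 5 correlated best with their own number. The replicate 4 libraries correlated with each other at 0.349 to 0.466, and all had a high GC correlation (0.55, 0.69 and 0.69 in Tfh, Th17 and Th1). The labels do not say whether equal numbers were handled together, and these values do not decide it. The replicate block alone gave 2941, 6923 and 5487 genes called for Tfh over Th17, Tfh over Th1 and Th17 over Th1, against 2113, 6206 and 4642, and changed no call of a member. GC content was known for 91.6% of the genes tested. At the depth of these libraries, Il4 and Il5 had too few reads to show a difference. The causes were not tested.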
